A study of Mus musculus with 68 samples.

Results

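The genes of sterol and fatty acid synthesis were followed through 23 intestinal specimens of C57BL/6 mice aged 3 months, in a study that set Cftr-deficient against Cftr wildtype intestine, with and without the ApcMin allele, which predisposes mice to intestinal tumours. Members were taken by name from the pathway, 21 sterol genes and 11 lipogenic genes, so 32 of the 23356 rows of the expression table, and all 32 were in the table and reached the level needed for testing. ApcMin mice gave 2 ileum tumours and 2 colon tumours labelled Cftr knockout, 2 ileum tumours and 2 colon tumours labelled Cftr wildtype, and 2 duodenal tumours and 2 colon tumours labelled Cftr heterozygous, which the submitters also call knockdown. Apc wildtype mice labelled Cftr knockout gave 2 duodenal tumours, 1 colon tumour, 2 normal duodena and 2 normal colons, and Apc wildtype, Cftr wildtype mice gave 2 normal duodena and 2 normal colons. In the Apc wildtype mice the Cftr alleles were floxed and Cre was driven by Villin, a gene of the intestinal epithelium, so deletion is aimed at that epithelium. The sources used here do not say which Cftr alleles the ApcMin animals carried. The labels call the colon whole tissue and the duodenum epithelium, while the design text speaks of colon epithelial cells and of whole duodenum without villi. Tumours of ApcMin mice labelled knockout came from 1 animal number and those labelled wildtype from 1 other, and the heterozygous duodenal tumours and the heterozygous colon tumours each carry 1 animal number too. The replicates of every ApcMin group are thus tumours under 1 number, and genotype and animal cannot be told apart. The p-values of all comparisons use a spread pooled over the groups of a fit, which mixes tumours of 1 animal with specimens of different animals.

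Cholesterol is built from acetyl-CoA through the mevalonate pathway, squalene and a series of sterol intermediates, and fatty acids are built from the same precursor by a carboxylase, a synthase, elongases and desaturases. Transcription of both pathways is driven by the SREBP factors, encoded by Srebf2 (mainly sterol genes) and Srebf1 (mainly fatty acid genes). Scap carries the SREBPs to the Golgi for activation when membrane sterol is low, and Insig1 holds them back when it is high. The intestine makes its own sterol for crypt cell growth and also absorbs it from food and bile.

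SREBPs bind sterol regulatory elements close to transcription starts, often beside a CCAAT box bound by NF-Y and a GC box bound by Sp1. The classical element, searched as TCACNCCAC on both strands from 250 bases before to 50 bases after each start in the RefSeq windows of GRCm38.p6, was found in 1 of the 17 sterol members with a window (5.88%), Hmgcs1, in 0 of 8 lipogenic members, and in 1.44% of 16344 genes of the table. The CCAAT box, searched as CCAAT on both strands, was in 15 of 17 sterol members (88.2%), 5 of 8 lipogenic members (62.5%) and 42.2% of all genes. The GC box GGGCGG was in 15 of 17 sterol members (88.2%), 5 of 8 lipogenic members (62.5%) and 50.4% of all genes. The E-box CACGTG was in 4 of 17 sterol members (23.5%), 0 of 8 lipogenic members and 9.26% of all genes, and a DR4 element, searched with both half-sites exact, was in no window of any gene. None of these motifs contains another, and a match describes letters only. The 150 bases before the start are shown for Hmgcs1, the only one of the members with a window to hold the classical element. They are also shown for the sterol members with a window and the highest mean level that hold a CCAAT box there. That set was chosen after the matches were counted. Capitals mark the sterol regulatory element and each CCAAT box, which reads ATTGG where it lies on the opposite strand.
Hmgcs1, chr13:119690201-119690350, plus strand: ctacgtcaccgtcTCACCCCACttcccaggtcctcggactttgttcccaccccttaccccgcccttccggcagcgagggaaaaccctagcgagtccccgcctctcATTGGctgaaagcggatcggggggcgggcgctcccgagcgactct
Idi1, chr13:8885456-8885605, plus strand: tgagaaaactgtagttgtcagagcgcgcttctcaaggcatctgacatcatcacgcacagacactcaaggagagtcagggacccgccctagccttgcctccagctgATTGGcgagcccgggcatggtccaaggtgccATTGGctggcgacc
Srebf2, chr15:82147119-82147268, plus strand: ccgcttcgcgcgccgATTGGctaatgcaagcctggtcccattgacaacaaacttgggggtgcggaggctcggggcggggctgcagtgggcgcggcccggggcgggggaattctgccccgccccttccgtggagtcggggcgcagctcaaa
Ebp, chrX:8193513-8193662, minus strand: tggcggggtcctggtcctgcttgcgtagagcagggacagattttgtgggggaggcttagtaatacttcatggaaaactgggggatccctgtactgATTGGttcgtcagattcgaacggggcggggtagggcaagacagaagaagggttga
Cyp51, chr5:4104698-4104847, minus strand: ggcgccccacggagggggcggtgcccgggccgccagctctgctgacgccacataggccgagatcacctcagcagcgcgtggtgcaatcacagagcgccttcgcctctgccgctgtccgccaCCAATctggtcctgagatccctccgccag
In Hmgcs1 the element lies 137 to 129 bases before the start. Idi1 carries 2 CCAAT boxes and the others shown carry 1 each.

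Specimens were sequenced in 2 runs, 15 in run 1, 19 in run 2 and 11 in both, and relative depth differed by 1.84-fold between columns. Levels are the deposited FPKM, which are scaled for transcript length and library size. Cftr itself was at 25.9 to 30.5 FPKM in colons labelled knockout, against 21.7 to 22.2 FPKM in wildtype colons, and at 33.0 to 47.2 FPKM in duodena labelled knockout, against 31.3 to 32.0 FPKM in wildtype duodena. FPKM over the whole gene may not show the loss of a floxed part, so these values do not check the labels, and knockout is used below as the label. Xist, the female-specific RNA of X inactivation, ranged over 24.0 to 55.6 FPKM in all ApcMin tumours and in duodenal tumour 1 of the knockouts, and over 0.0212 to 0.461 FPKM in the other 10 specimens, so sex and the ApcMin tumours cannot be told apart in comparisons with normal tissue. The 2 wildtype duodena differed about as much as sequencing lanes of 1 specimen did (SD of the log2 difference 0.912 times that expected from lanes in run 1 and 1.10 times in run 2) and were counted as 1 sample, whereas the specimens of the other groups differed by 2.02 to 6.02 times. The run 1 library of wildtype colon 2 stood apart, with a summed level of small-intestinal enterocyte markers of 3219 FPKM in run 1 against 341 FPKM in run 2, and the counts, the sterol medians and the calls that change without wildtype colon 2 are given beside the results.

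From the lowest to the highest specimen the 21 sterol genes spanned 1.37-fold for Ggps1, the geranylgeranyl diphosphate synthase, to 3.93-fold for the sterol reductase Tm7sf2. The widest spans were those of 4 lipogenic genes, which reached 23.3-fold for Me1, malic enzyme, which supplies NADPH, 19.2-fold for the desaturase Scd2, 18.4-fold for its paralogue Scd1 and 14.2-fold for the elongase Elovl6. Other lipogenic genes lay within the range of the sterol genes, such as Acaca at 2.38-fold and Srebf1 at 2.92-fold. Scd1 and Scd2 are neighbours on chromosome 19 (GRCm38, 44394450 to 44407709 and 44293676 to 44306864) with similar sequences, and how the authors' counting assigned reads shared by them is not stated, so each is uncertain to that extent. Wildtype colon 2 was the lowest of the 23 specimens for 14 of the 21 sterol genes. Across 22 samples, with the wildtype duodenum as 1, the 210 pairs of sterol genes had a median correlation of 0.551 on log2(FPKM + 1), the 55 lipogenic pairs 0.216 and the 231 mixed pairs 0.143. These points share animals, runs and tissues, and the values describe the table. Cyp51, lanosterol demethylase, and Fdps, farnesyl diphosphate synthase, followed the other sterol genes most closely (median r 0.825 and 0.816), while Ebp (-0.0368), Dhcr7 (-0.03) and Scap (0.0648) had the lowest values. Across classes the highest correlation was that of Srebf2 with Scd2 (r 0.891 over 22 samples). Among lipogenic pairs, whose lowest correlation was -0.82, Acly ran opposite to Me1 (-0.799).

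**Figure D1:**
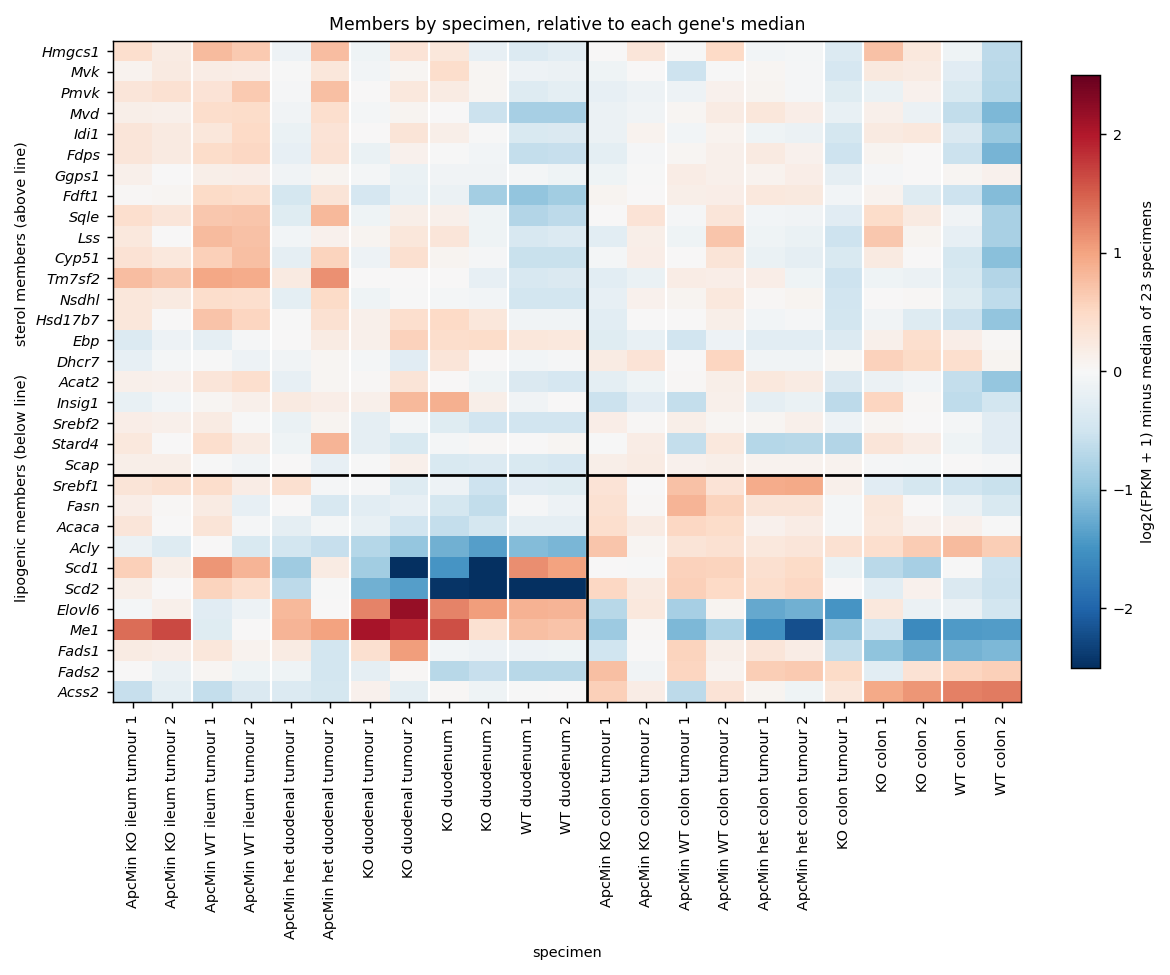
Each row is a member and each column a specimen; colour gives log2(FPKM + 1) minus the gene's median over the 23 specimens, with values past the ends of the scale in its end colours, small intestine left of the vertical black line and colon right of it, sterol genes above the horizontal line and lipogenic genes below. Rows of Scd2, Scd1, Me1 and Elovl6 show the strongest colours, and wildtype colon 2 is the lowest specimen for 14 of the 21 sterol genes.

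Between duodenum and colon the member with the largest difference was Scd2. In wildtype duodenum Scd2 was at 17.2 and 18.9 FPKM, against 168 and 149 FPKM in wildtype colon, a log2 change of -3.06 (SE 0.28, limma adjusted p = 1.04e-05). ATP citrate lyase, Acly, which makes cytosolic acetyl-CoA, was at 27.7 and 26.7 FPKM in duodenum, against 105 and 92.9 FPKM in colon (-1.82, SE 0.23, adjusted p = 9.49e-05). Me1 ran the other way, with 40.8 and 39.9 FPKM in duodenum and 8.30 and 8.41 FPKM in colon (2.14, SE 0.52, adjusted p = 0.00694). No duodenal value of these 3 genes fell within the colon's range. In bulk tissue a smaller share of the cells that express a gene and less RNA per cell cannot be told apart, and the duodenum and colon samples differ in cell types: the enterocyte marker list summed to 35137 and 35686 FPKM in wildtype duodenum, against 464 and 1780 FPKM in wildtype colon.

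Of the 32 members, 3 rose and 5 fell in wildtype duodenum relative to colon, where 34.6% of all genes tested passed, 18.3% higher and 16.2% lower. Among the others, the neighbouring desaturases of polyunsaturated fatty acid synthesis on chromosome 19 moved apart: Fads1 rose to 22.8 and 23.4 FPKM in duodenum, against 10.6 and 11.1 FPKM in colon (1.03, adjusted p = 0.0178), while Fads2 fell to 57.3 and 57.2 FPKM, against 136 and 142 FPKM (-1.26, adjusted p = 0.00809). The acetyl-CoA synthetase Acss2 fell (24.4 and 24.5 FPKM in duodenum, 60.4 and 62.2 FPKM in colon, -1.29, adjusted p = 0.00669), as did Scap (-0.38, adjusted p = 0.0121), and Hsd17b7, a ketoreductase of sterol synthesis, rose (0.68, adjusted p = 0.0325). Without wildtype colon 2 Hsd17b7 (0.45, adjusted p = 0.19) and Fads1 (adjusted p = 0.0525) did not pass. With a block by animal, which counts the wildtype duodena apart, 12 members passed, among them Acat2 (0.40, adjusted p = 0.0168, against 0.0792 without the block) and Srebf2 (-0.32, adjusted p = 0.037, against 0.11 without it). Those 2 duodena differed about as lanes of 1 specimen do, so counting them apart can understate the spread. The added calls cannot be credited to the pairing, and the share of all genes at this setting is not given here. In duodena labelled knockout 4 members rose and 8 fell relative to colons labelled knockout, where 45.7% of all genes passed, 23.3% higher and 22.3% lower. Scd2 was at 39.1 and 24.6 FPKM in those duodena, against 181 and 235 FPKM in the colons (-2.70, adjusted p = 1.95e-06), and Acly at 25.4 and 22.5 FPKM, against 81.0 and 93.2 FPKM (-1.82, adjusted p = 8.34e-06). Me1, Fads1, Hsd17b7 and Elovl6 rose, Elovl6 to 54.5 and 47.4 FPKM, against 26.9 and 20.1 FPKM (1.10, adjusted p = 0.034). The synthase Fasn (-0.67, adjusted p = 0.00974), the carboxylase Acaca (-0.70, adjusted p = 0.00198), Acss2, Fads2, Scap and Srebf2 (-0.41, adjusted p = 0.0135) fell. The shares of members that passed, 8 and 12 of 32, were no larger than those of all genes. The median log2 change of the 21 sterol genes was 0.18 in wildtype tissue, which turned to -0.11 without wildtype colon 2, and -0.09 in tissue labelled knockout, beside 0.01 and 0.02 for all genes.

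**Figure D2:**
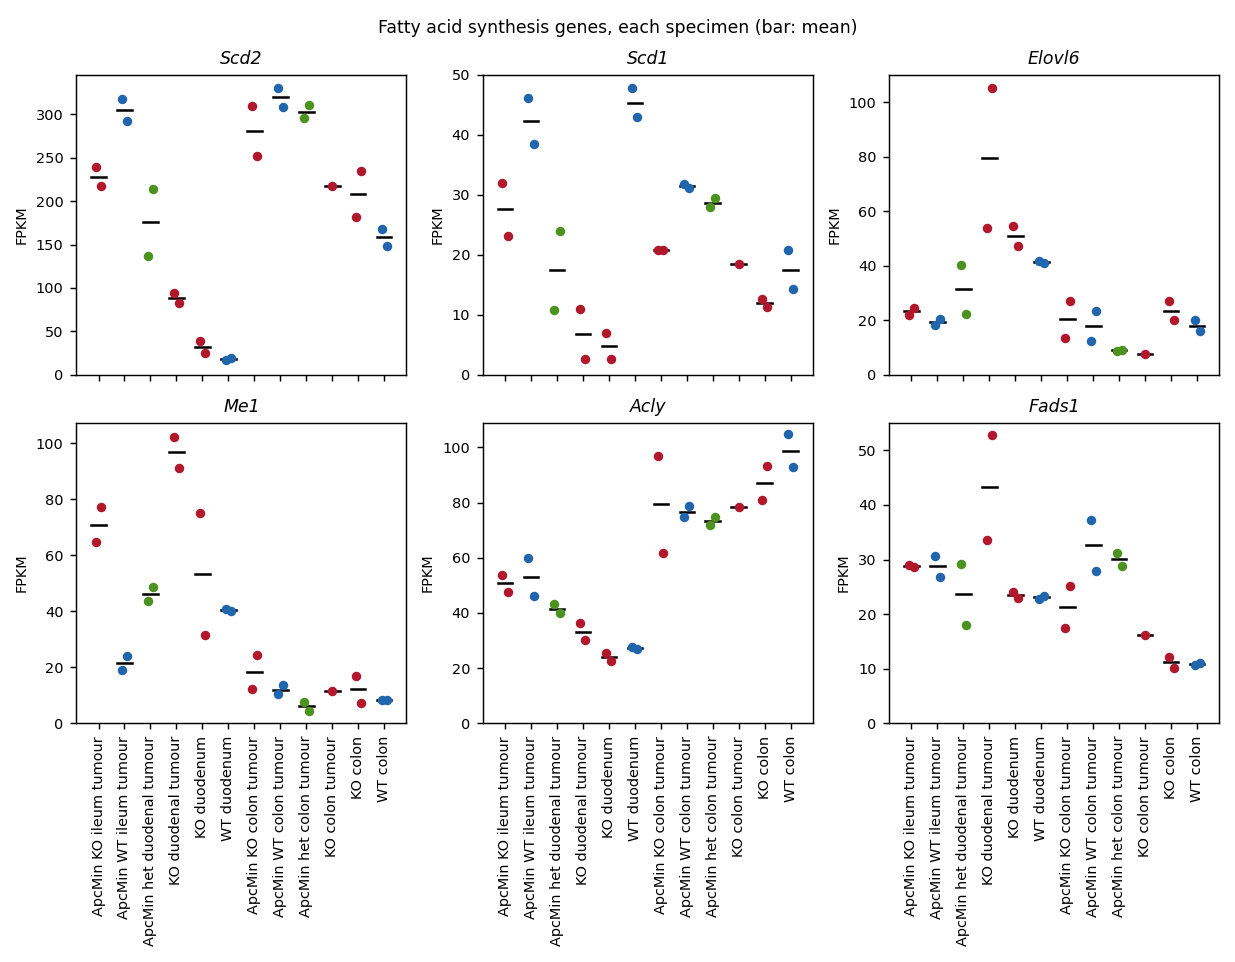
Each panel shows 1 fatty acid gene in FPKM from 0, each point a specimen and each bar a group mean, with Cftr knockout in red, Cftr wildtype in blue and heterozygous in green, small intestine to the left and colon to the right. Scd2 and Acly are low in normal duodenum and high in colon, and Scd1 is at 6.88 and 2.66 FPKM in knockout duodenum against 47.8 and 42.9 FPKM in wildtype duodenum.

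In normal colon, nearly every enzyme of sterol synthesis had higher values in the specimens labelled knockout, though no member passed the test over all genes. Farnesyl diphosphate synthase, Fdps, was at 171 and 164 FPKM in colons labelled knockout, against 113 and 72.6 FPKM in wildtype colons. Idi1, isopentenyl diphosphate isomerase, was at 93.8 and 96.8 FPKM, against 62.4 and 41.8 FPKM. Cyp51 was at 51.6 and 44.4 FPKM, against 32.4 and 21.1 FPKM. In each of these the lower colon labelled knockout lay above the higher wildtype colon, and the 2 wildtype colons lay further apart than the 2 labelled knockout. The log2 changes were 0.88 for Fdps (SE 0.20), 0.89 for Idi1 (SE 0.19) and 0.85 for Cyp51 (SE 0.25), with limma adjusted p = 0.428, 0.428 and 0.518. Without wildtype colon 2 they were 0.56 for Fdps, 0.60 for Idi1 and 0.55 for Cyp51. The smallest p among the members was that of Acat2, the cytosolic thiolase at the head of the pathway, with 28.8 and 30.1 FPKM in colons labelled knockout and 20.6 and 15.7 FPKM in wildtype colons (0.68, SE 0.13, adjusted p = 0.380). Mvd, mevalonate diphosphate decarboxylase, had a log2 change of 0.86 (SE 0.20) and Mvk, mevalonate kinase, one of 0.69 (SE 0.18), both at adjusted p = 0.428.

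Of the 32 members 0 passed in colon, as did 0 of all 14098 genes (0%), and 948 genes, 14 of them sterol members with positive changes and 1 a lipogenic member, had an unadjusted p under 0.05. Changes were positive in 19 of 21 sterol genes with a median of 0.68, beside 0.0027 for all genes, and 18 of them had no overlap between groups with the knockout higher, which held for 26.5% of all genes. The members without a positive change were Ggps1 and Scap (-0.02). The sterol median was 0.40 without wildtype colon 2, 0.79 without wildtype colon 1, and 0.69 with wildtype colon 2 represented by its run 2 library alone. With either wildtype colon left out that group holds 1 specimen, so only sizes of change are given here for those fits. The 11 lipogenic genes had a median of 0.14, and it turned to -0.08 without knockout colon 1. Fasn was at 27.0 and 22.0 FPKM in colons labelled knockout, against 19.9 and 16.7 FPKM in wildtype colons (0.40, adjusted p = 0.734), and Fads2 at 77.4 and 119 FPKM, against 136 and 142 FPKM (-0.53, adjusted p = 0.777). The log2 change was 0.38 for Scd2 (adjusted p = 0.822) and -0.26 for Acss2 (adjusted p = 0.913).

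Among the regulators, Insig1 had a change as large as the enzymes'. Insig1, itself an SREBP target, was at 85.9 and 59.8 FPKM in colons labelled knockout, against 37.4 and 42.4 FPKM in wildtype colons (0.83, SE 0.28, adjusted p = 0.563). Srebf2 averaged 57.1 ± 1.36 FPKM in colons labelled knockout and 50.3 ± 6.06 FPKM in wildtype colons (SD, n = 2 each), a log2 change of 0.19 (limma adjusted p = 0.842). Srebf1 averaged 23.4 ± 1.76 FPKM in colons labelled knockout and 20.6 ± 0.511 FPKM in wildtype colons (0.17, limma adjusted p = 0.917).

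Other tissue markers moved beside the sterol genes in colon. The 11 epithelial markers summed to 8378 and 8788 FPKM in colons labelled knockout, against 6668 and 5817 FPKM in wildtype colons, with 11 of 11 changes positive and none of the markers at 0. The 12 proliferation markers summed to 248 and 264 FPKM, against 214 and 165 FPKM, with 11 of 12 positive. The adipocyte markers summed to 123 and 103 FPKM, against 316 and 229 FPKM, with 0 of 9 tested positive and none at 0. Per 1000 FPKM of epithelial markers the sterol genes summed to 142 and 121 FPKM in colons labelled knockout, against 123 and 106 FPKM in wildtype colons, a measure added after the data were seen. On that scale the groups overlapped. The part of these cell types in the sterol differences was not tested.

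**Figure D3:**
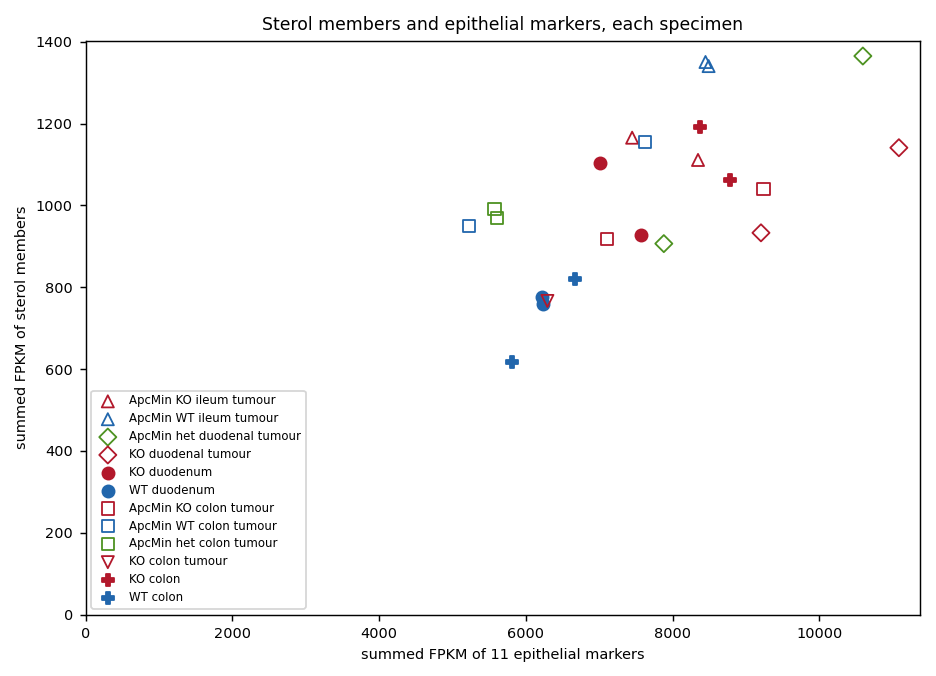
Each point is a specimen, with the summed FPKM of the 11 epithelial markers on the horizontal axis and the summed FPKM of the 21 sterol members on the vertical axis, both from 0; red marks Cftr knockout, blue wildtype and green heterozygous, and open symbols are tumours. The lowest sterol sums are those of the wildtype colons and wildtype duodena, 617 to 819 FPKM, and of the colon tumour labelled knockout, 766 FPKM.

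Normal duodenum showed a smaller shift of the sterol genes and 1 large difference among the lipogenic genes. Scd1, which puts the first double bond into saturated fatty acids, was at 6.88 and 2.66 FPKM in duodena labelled knockout, against 47.8 and 42.9 FPKM in wildtype duodena. Both values labelled knockout lay far below both wildtype values. The 2 wildtype duodena differed about as lanes of 1 specimen do, so counting them apart can understate the spread. The log2 change was -3.11 (SE 0.60, adjusted p = 0.197), so it did not pass with the wildtype duodenum as 1 sample, and it passed with those 2 specimens counted apart (adjusted p = 0.0144) or with a block by replicate number, which also counts them apart (adjusted p = 0.0169), while over all alternatives the adjusted p ran from 0.0144 to 0.953. Its paralogue Scd2 was at 39.1 and 24.6 FPKM in duodena labelled knockout, against 17.2 and 18.9 FPKM in wildtype duodena (0.75, SE 0.28, adjusted p = 1). Fasn (15.9 and 14.1 FPKM against 21.6 and 20.0 FPKM in wildtype duodena) and Acaca (5.22 and 5.88 FPKM against 7.08 and 7.0 FPKM) had log2 changes of -0.45 and -0.30, both at adjusted p = 1. The adipocyte markers, cells that also express Scd1, summed to 135 and 211 FPKM in duodena labelled knockout, against 492 and 463 FPKM in wildtype duodena, with 1 of 9 changes positive and none of the markers at 0, and their part in the Scd1 difference was not tested.

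Squalene epoxidase, Sqle, was at 62.2 and 52.9 FPKM in duodena labelled knockout, against 34.0 and 35.7 FPKM in wildtype duodena (0.70, SE 0.37). Fdps was at 164 and 157 FPKM, against 108 and 109 FPKM (0.56, SE 0.24), and Mvd at 35.1 and 23.9 FPKM, against 19.3 and 19.2 FPKM (0.56, SE 0.24). The log2 changes of Cyp51, Hsd17b7 and Acat2 were 0.57, 0.48 and 0.34. For these 6 genes both duodena labelled knockout lay above both wildtype ones, and the adjusted p of each was 1. Of the regulators, Insig1 was at 109 and 64.7 FPKM, against 55.5 and 58.7 FPKM (0.55), and the log2 changes of Srebf2, Scap and Srebf1 were 0.09, 0.04 and -0.03. In all, 0 of 32 members and 0 of 14098 genes passed (0%), with 368 genes at an unadjusted p under 0.05. Changes were positive in 19 of 21 sterol genes with a median of 0.40, beside 0.0083 for all genes, and in 5 of 11 lipogenic genes with a median of -0.03. In 19 sterol genes both duodena labelled knockout lay above the wildtype mean, as in 33.2% of all genes. Without knockout duodenum 1 the sterol median was 0.19. That specimen also carried 1428 FPKM of pancreatic acinar markers, against 9.43 FPKM in knockout duodenum 2, and had the higher level of 17 of the 21 sterol genes. Per 1000 FPKM of epithelial markers the sterol genes summed to 157 and 123 FPKM in duodena labelled knockout, against 122 and 125 FPKM in wildtype duodena. The changes in duodenum minus those in colon were tested directly, and 0 members and 0 genes passed (0%), with 315 genes at an unadjusted p under 0.05. That difference was -2.62 for Scd1 (SE 0.77) and -0.85 for Fasn (SE 0.29), each at adjusted p = 1, and its sterol median was -0.26, which turned to 0.03 without wildtype colon 2.

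**Figure D4:**
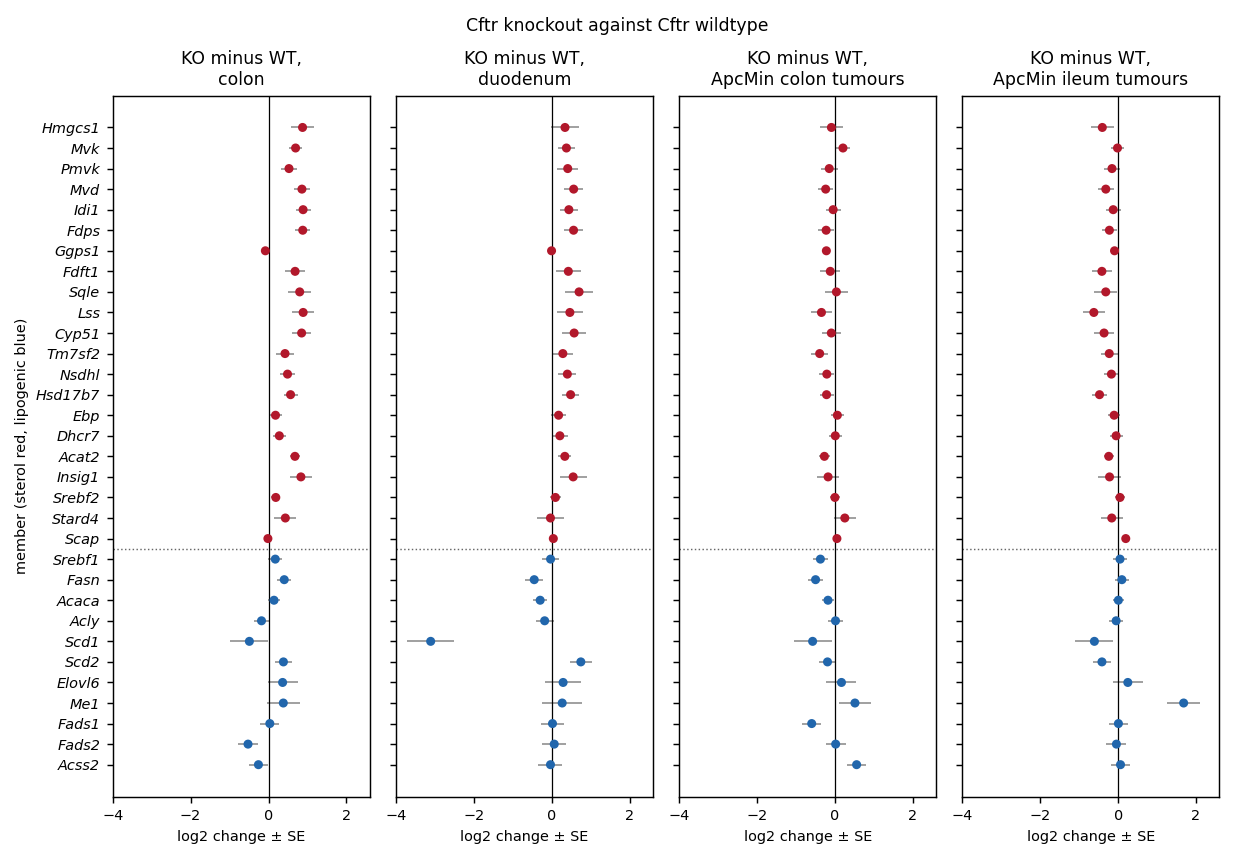
Points are log2(FPKM + 1) changes of knockout minus wildtype for each member with bars of 1 SE, in colon, duodenum, ApcMin colon tumours and ApcMin ileum tumours, sterol genes in red above the dotted line and lipogenic genes in blue below. Most red points lie right of 0 in the 2 normal tissues (medians 0.68 and 0.40) and left of it in the 2 kinds of tumour (medians -0.12 and -0.22).

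In ApcMin colon tumours most sterol genes had somewhat lower values in those labelled knockout, and no member passed the test (0 of 32, beside 0.0638% of all genes). Fasn was at 29.2 and 22.4 FPKM in tumours labelled knockout, against 40.3 and 33.1 FPKM in wildtype tumours (-0.50, SE 0.18, adjusted p = 0.318). Fads1 was at 17.4 and 25.2 FPKM, against 37.3 and 27.9 FPKM (-0.60, SE 0.24, adjusted p = 0.356). Srebf1 was at 38.4 and 30.2 FPKM, against 51.0 and 38.7 FPKM (-0.37, adjusted p = 0.447). For these 3 fatty acid genes the groups did not overlap, with wildtype tumours higher. Acss2 had 37.8 and 28.2 FPKM in tumours labelled knockout and 15.3 and 31.2 FPKM in wildtype tumours (0.56, adjusted p = 0.404), and of the alternatives run it passed only without wildtype tumour 2 (1.05, adjusted p = 0.00854, over a range of 0.00854 to 1). Among sterol genes Ggps1 (-0.22, adjusted p = 0.338), Acat2 (-0.27), Tm7sf2 (-0.39), Lss (-0.35), Mvd (-0.24) and Hsd17b7 (-0.22) had the smallest p values. Changes were positive in 6 of 21 sterol genes, with a median of -0.12 that was 0.03 without wildtype tumour 2, and 7 had no overlap with the knockout lower, beside 15.7% of all genes. Of the lipogenic genes 5 of 11 had positive changes, with a median of -0.18, beside 0.0024 for all genes. The log2 changes of Insig1 and Scap were -0.18 and 0.05, and Srebf2 was at 62.9 and 57.3 FPKM in tumours labelled knockout, against 62.5 and 57.8 FPKM. Small-intestinal enterocyte markers summed to 1125 and 685 FPKM in tumours labelled knockout, against 175 and 542 FPKM in wildtype tumours, with 12 of 12 changes positive (median 2.05), and adipocyte markers to 118 and 45.4 FPKM, against 25.2 and 52.1 FPKM, with 9 of 9 positive (median 0.61) and 3 of the 10 listed at 0 in wildtype tumour 1. None of these markers passed the test, and their part was not tested.

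In ApcMin ileum tumours the sterol enzymes had lower values in those labelled knockout and Me1 was higher. Me1 was at 64.6 and 77.2 FPKM in tumours labelled knockout, against 19.1 and 23.9 FPKM in wildtype tumours, with the groups far apart (1.68, SE 0.42, adjusted p = 0.230). Of the alternatives run it passed only when the spread was taken from these 4 specimens alone (adjusted p = 0.0142, over a range of 0.0142 to 1). Lanosterol synthase, Lss, was at 21.5 and 17.7 FPKM in tumours labelled knockout, against 31.4 and 29.9 FPKM (-0.63, adjusted p = 0.830). Squalene synthase, Fdft1, was at 58.4 and 59.3 FPKM, against 79.8 and 78.3 FPKM (-0.42, adjusted p = 1). Hsd17b7 (-0.48, adjusted p = 0.622), Mvd (-0.32) and Acat2 (-0.24) were lower in both tumours labelled knockout than in either wildtype tumour, and Scap was higher (22.0 and 21.8 FPKM against 19.5 and 18.5 FPKM, 0.19, adjusted p = 0.787). Scd2 had 240 and 217 FPKM, against 318 and 292 FPKM (-0.42, adjusted p = 0.979), and the log2 changes of Scd1 and Elovl6 were -0.61 and 0.25. In all, 0 of 32 members passed, beside 0.121% of all genes. Changes were positive in 2 of 21 sterol genes (median -0.22, beside 0.0076 for all genes), and 13 had no overlap with the knockout lower, which held for 21% of all genes. The log2 changes of Insig1, Srebf2 and Srebf1 were -0.22, 0.05 and 0.05. The difference between the ileum and colon tumour changes passed for 0 members and 0 genes (0%), with 676 genes at an unadjusted p under 0.05. It was 0.59 for Fasn (SE 0.26, adjusted p = 0.935) and 1.17 for Me1 (SE 0.60, adjusted p = 0.935).

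ApcMin ileum tumours were also set against ApcMin colon tumours of the same Cftr label. In wildtype ileum tumours Tm7sf2 rose to 39.4 and 38.5 FPKM, against 22.5 and 22.2 FPKM in colon tumours (0.77, adjusted p = 0.0393), and Fasn fell to 25.6 and 19.0 FPKM, against 40.3 and 33.1 FPKM (-0.70, adjusted p = 0.0256), with 11.7% of all genes passing, 7.05% higher and 4.7% lower. In ileum tumours labelled knockout Me1 rose to 64.6 and 77.2 FPKM, against 12.2 and 24.3 FPKM in colon tumours labelled knockout (1.97, adjusted p = 0.00864). Tm7sf2 rose to 34.3 and 31.9 FPKM, against 16.2 and 17.4 FPKM (0.94, adjusted p = 0.0143), and Acly fell to 53.9 and 47.5 FPKM, against 96.9 and 61.8 FPKM (-0.60, adjusted p = 0.0493), with 13.4% of all genes passing, 7.17% higher and 6.21% lower. These calls of 2 members in wildtype tumours and 3 in tumours labelled knockout did not all hold when 1 specimen was left out. They depended on wildtype ileum tumour 2 in the former, and on knockout colon tumour 1 or knockout ileum tumour 2 in the latter. The shares of all genes at those settings are not given here.

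Duodenal tumours of the Apc wildtype mice labelled knockout differed from duodenum labelled knockout mainly in Scd2. Scd2 rose to 93.6 and 82.5 FPKM in tumours, against 39.1 and 24.6 FPKM in duodenum (1.47, SE 0.23, adjusted p = 0.00179). Scap rose to 19.6 and 21.4 FPKM, against 14.9 and 15.3 FPKM (0.42, SE 0.08, adjusted p = 0.00852). These were the 2 of 32 members that passed, where 8.16% of all genes did and 3.94% rose. With only the compared groups in the fit neither passed (adjusted p = 0.0756 for Scd2 and 0.121 for Scap), and Scap did not without knockout duodenum 1 (0.0664) or without tumour 2 (0.0841). Fads1 was at 33.6 and 52.9 FPKM in tumours, against 24.0 and 22.9 FPKM in duodenum (0.82, adjusted p = 0.0553), Acly at 36.2 and 30.1 FPKM, against 25.4 and 22.5 FPKM (0.45, adjusted p = 0.164), and Me1 at 102 and 91.2 FPKM, against 75.1 and 31.6 FPKM (0.97, adjusted p = 0.186). Of the log2 changes, 10 of 11 were positive among lipogenic genes (median 0.45) and 14 of 21 among sterol genes (median 0.01), beside -0.01 for all genes. After Scap the smallest p values among sterol genes were those of Srebf2 (0.25) and Dhcr7, the last reductase of cholesterol synthesis (-0.33, adjusted p = 0.273). Smooth muscle markers summed to 582 and 122 FPKM in the tumours, against 856 and 846 FPKM in duodenum. Epithelial markers summed to 9205 and 11084 FPKM, against 7010 and 7570 FPKM, with 6 of 11 changes positive. Changes were positive in 1 of 12 small-intestinal enterocyte markers (median -0.82), and 0 of them passed. The part of these cell types in the values above was not tested.

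The single colon tumour of the Apc wildtype mice labelled knockout was low in sterol genes. None of the 32 members passed (12.8% of all genes did), but 19 of 21 sterol genes were below both colons labelled knockout, which held for 43.3% of all genes against 2 specimens, and their median change was -0.49. Stard4, a sterol carrier, was at 32.2 FPKM in the tumour, against 66.6 and 61.7 FPKM in colon (-0.97, SE 0.34, adjusted p = 0.0758). Insig1 was at 36.9 FPKM, against 85.9 and 59.8 FPKM (-0.94, adjusted p = 0.0899), and Idi1 at 58.9 FPKM, against 93.8 and 96.8 FPKM (-0.68, adjusted p = 0.073). Ebp, a sterol isomerase (-0.62, adjusted p = 0.0584), Mvk (-0.64) and Lss (-0.89) also lay below both colons. Elovl6 was at 7.42 FPKM, against 26.9 and 20.1 FPKM (-1.53, SE 0.47, adjusted p = 0.0515), the lowest level of any specimen. With 1 tumour, its own spread is assumed to be that of the other groups, and the count of members past the test was 0 to 3 over the other settings. The shares of all genes at those settings are not given here. Epithelial markers summed to 6294 FPKM in the tumour, against 8378 and 8788 FPKM in the colons. Per 1000 FPKM of epithelial markers the sterol genes summed to 122 FPKM in the tumour, against 142 and 121 FPKM in the colons. On that scale the tumour lay between the 2 colons, and the part of epithelial cells was not tested.

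ApcMin colon tumours labelled Cftr wildtype were higher than wildtype colon in much of the sterol pathway and in several fatty acid genes. In run 2, the only run of these tumours, 14 of 32 members rose and 1 fell, where 38.0% of all genes passed, 19.1% higher and 18.9% lower. Fads1 rose to 37.3 and 27.9 FPKM in tumours, against 10.5 and 10.8 FPKM in colon (1.51, SE 0.21, adjusted p = 0.000922). Srebf1 rose to 51.0 and 38.7 FPKM, against 21.2 and 20.4 FPKM (1.06, SE 0.17, adjusted p = 0.0016). Acat2 rose to 32.7 and 35.1 FPKM, against 20.0 and 15.1 FPKM (0.92, SE 0.13, adjusted p = 0.00101). Tumours and colon did not overlap in any of these. The other members that rose were Scd2 (330 and 309 FPKM in tumours, 173 and 161 FPKM in colon, 0.93), Fasn (0.91), Mvd (1.04), Fdps (0.97), Fdft1 (0.95), Cyp51 (0.89), Hsd17b7 (0.88), Tm7sf2 (0.72), Idi1 (0.68), Nsdhl (0.65) and Pmvk (0.59), with adjusted p = 0.00136 to 0.0155. Acss2 fell to 15.3 and 31.2 FPKM, against 61.2 and 65.5 FPKM (-1.49, SE 0.27, adjusted p = 0.00262). The sterol median was 0.61, and it was 0.39 without wildtype colon 2, when 9 members passed. Pmvk, Idi1 (0.37), Fdft1, Cyp51 (0.55), Nsdhl and Hsd17b7 then did not pass (adjusted p = 0.0537 to 0.141), and Fdps did at 0.63 (adjusted p = 0.0227). With only the 4 compared specimens in the fit, 1 of the members passed. Shares of all genes at these alternative settings are not given here, so the counts there are not read as particular to the members. Proliferation markers rose in 12 of 12 beside these genes, smooth muscle markers fell in 6 of 6 and adipocyte markers in 8 of 9, and their part was not tested.

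ApcMin colon tumours labelled knockout, set against colons labelled knockout, showed a rise of 1 fatty acid gene and no sterol gene past the test. Of the 32 members only Fads1 passed (17.4 and 25.2 FPKM in tumours, 11.6 and 10.7 FPKM in colon, 0.86, SE 0.21, adjusted p = 0.0297), where 10.9% of all genes did and 5.26% rose. It did not pass without knockout colon 1 (0.118), without knockout colon 2 (0.129), without knockout tumour 2 (0.165) or with the compared groups alone (0.0772). With a replicate block 2 members passed, and the share of all genes at that setting is not given here. Srebf1 was at 38.4 and 30.2 FPKM, against 24.3 and 21.9 FPKM (0.54, adjusted p = 0.0642). Ebp (-0.47, adjusted p = 0.101), Insig1 (40.2 and 47.8 FPKM in tumours, 81.2 and 60.5 FPKM in colon, -0.67, adjusted p = 0.166) and Acss2 (-0.64, adjusted p = 0.142) had lower values in tumours. Changes were positive in 5 of 21 sterol genes with a median of -0.09, and in 7 of 11 lipogenic genes with a median of 0.25.

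The difference between these tumour changes, knockout minus wildtype, was tested in run 2 as a comparison added after the data were seen. It was negative in 20 of 21 sterol genes, with a median of -0.77 beside -0.0071 for all genes. No member passed, beside 0.00709% of all genes, and 14 sterol genes and 2 lipogenic genes were among the 1204 genes with an unadjusted p under 0.05. Acat2 differed by -0.93 (SE 0.19, adjusted p = 0.435), Fdps by -1.14 (SE 0.26, adjusted p = 0.489), Mvd by -1.12 (SE 0.27, adjusted p = 0.489) and Fasn by -0.92 (SE 0.26, adjusted p = 0.498). The sterol median was -0.50 without wildtype colon 2. The comparison is built from the same 8 specimens as the knockout differences given above for colon and for colon tumours. It is thus no independent evidence of them.

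**Figure D5:**
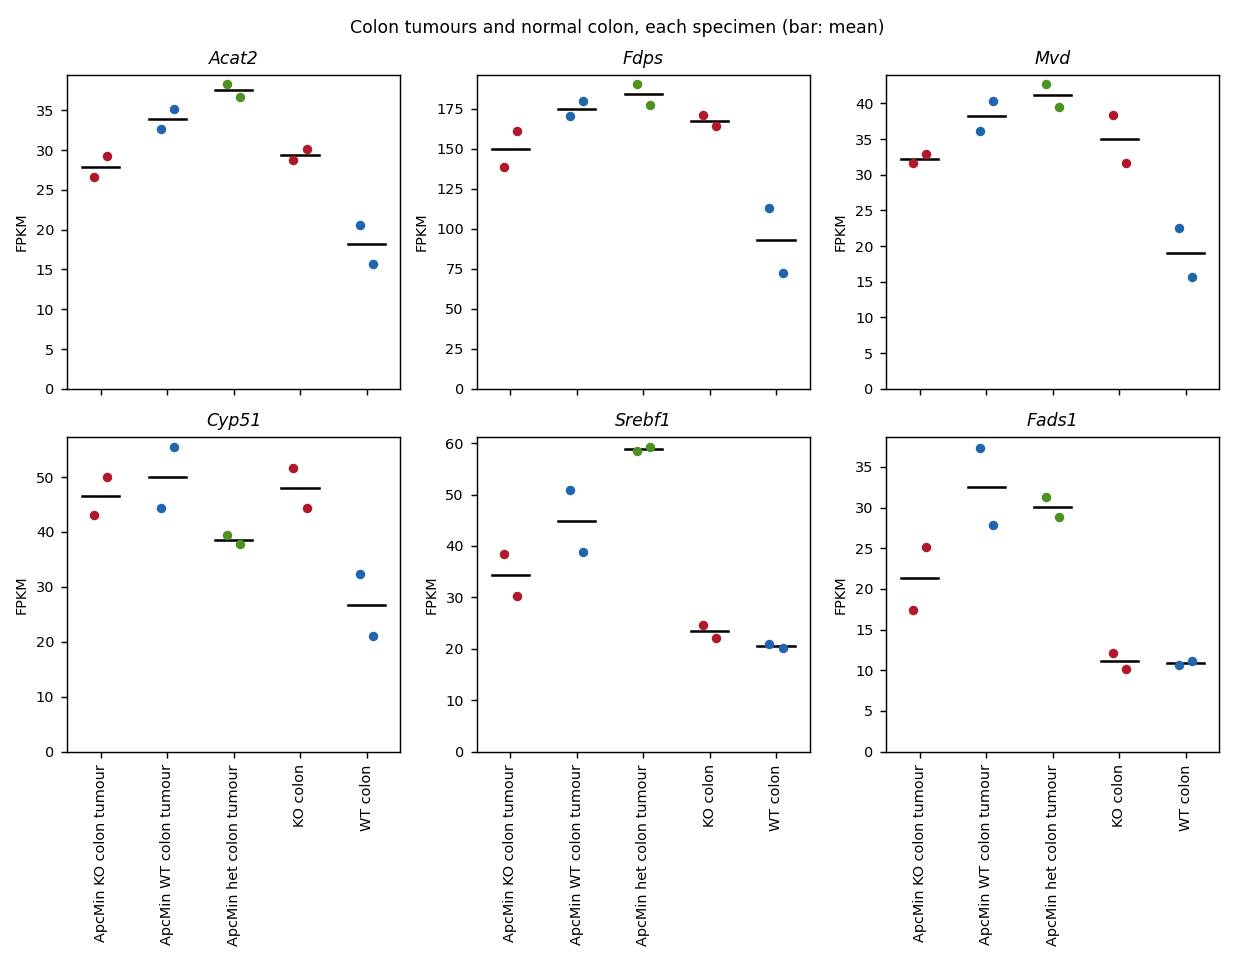
Panels show 6 members in FPKM from 0, each point a specimen averaged over its runs and each bar a group mean, for ApcMin colon tumours labelled knockout (red), wildtype (blue) and heterozygous (green) and for normal colon labelled knockout (red) and wildtype (blue). Acat2, Fdps, Mvd and Cyp51 are lowest in wildtype colon, while Srebf1 and Fads1 are low in both kinds of normal colon.

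Heterozygous ApcMin colon tumours, sequenced in run 1, had 9 members that rose and 2 that fell relative to wildtype colon, where 47.2% of all genes passed, 24.2% higher and 23% lower. Srebf1 rose to 58.5 and 59.2 FPKM in tumours, against 20.8 and 20.1 FPKM in colon (1.48, SE 0.19, adjusted p = 0.000544), the highest levels of this factor in any specimen. Fads1 (1.37), Acat2 (0.97), Fdps (0.98), Mvd (1.04), Fdft1 (1.05), Hsd17b7 (0.69), Fasn (0.64) and Scd2 (295 and 311 FPKM in tumours, 164 and 137 FPKM in colon, 1.01) rose, with adjusted p = 0.00149 to 0.0259. Acss2 fell to 25.9 and 22.8 FPKM, against 59.6 and 58.8 FPKM (-1.25, SE 0.13, adjusted p = 0.000268), and Elovl6 to 8.59 and 9.20 FPKM, against 20.0 and 17.0 FPKM (-0.97, adjusted p = 0.0433). The wildtype colons here are the same specimens as in the comparison of wildtype tumours. The run 1 library of wildtype colon 2 enters here, and 5 of the members passed without it. The count was 6 with either tumour left out, 5 without wildtype colon 2 (Mvd, Fdps, Fdft1, Hsd17b7, Fasn, Scd2 and Elovl6 did not pass, at adjusted p = 0.0556 to 0.155) and 20 with only the compared groups in the fit. The shares of all genes at these settings are not given here, so the counts are not read as particular to the members. Sterol changes had a median of 0.40, or 0.25 without wildtype colon 2, beside -0.02 for all genes. Proliferation markers rose in 11 of 12 beside these genes, adipocyte markers fell in 9 of 9, smooth muscle markers in 5 of 6 and small-intestinal enterocyte markers in 5 of 12, and their part was not tested.

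Heterozygous ApcMin duodenal tumours differed from wildtype duodenum most in Scd2, which rose to 137 and 214 FPKM, against 16.2 and 16.8 FPKM (a log2 change of 3.3, SE 0.33, adjusted p = 0.00235). It was the only one of 32 members to pass, where 6.80% of all genes did and 4.00% rose, and with the compared groups alone it did not (adjusted p = 0.292, over a range of 9.99e-05 to 0.292). With the wildtype duodena counted as 2 specimens 7 members passed, and with the replicate block, which also counts them apart, 10 did. Both settings can understate the spread, since those duodena differed about as lanes do. The shares of all genes at these settings are not given here. Mvd was at 33.1 and 47.3 FPKM in tumours, against 19.4 and 19.3 FPKM in duodenum (1.00, adjusted p = 0.0834), and Sqle at 46.3 and 100.5 FPKM, against 32.9 and 34.3 FPKM (1.00, adjusted p = 0.185). The 2 tumours differed widely, with 19 of 21 sterol genes higher in tumour 2. Tm7sf2 (0.97), Fdps (0.68), Srebf2 (0.45), Scap (0.31) and Srebf1 (0.50) had positive changes and Acss2 a negative one (-0.38), and Acly was at 43.2 and 39.8 FPKM, against 27.0 and 26.9 FPKM (0.60, adjusted p = 0.0717). Of the 21 sterol genes 20 had positive changes (median 0.47, beside 0.01 for all genes). Epithelial markers summed to 7881 and 10593 FPKM in these tumours, against 6236 and 6218 FPKM in wildtype duodena in run 1. Per 1000 FPKM of epithelial markers the sterol genes summed to 115 and 129 FPKM in tumours. In wildtype duodena, averaged over both runs, they summed to 122 and 125 FPKM. On that scale the groups overlapped, and the part of epithelial cells in the sterol changes was not tested.

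In several groups most sterol genes were higher in the same specimen. The share of all genes higher in that specimen was not computed, so a shift of the whole specimen cannot be told apart from one of these genes. In wildtype colon 19 of 21 were higher in specimen 1, in ApcMin colon tumours labelled knockout 19 of 21 were higher in tumour 2, and in duodenal tumours labelled knockout and wildtype ApcMin colon tumours 18 of 21 were higher in tumour 2. In colons and in ApcMin ileum tumours labelled knockout 15 of 21 were higher in specimen 1, and in the wildtype duodena 13 of 21 in specimen 2. The split was near even in wildtype ileum tumours (11 and 10) and heterozygous colon tumours (12 and 9).

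Genes around the 2 pathways were followed as a wider list of 25 tested sterol genes (uptake, efflux, storage and further enzymes) and 20 tested lipogenic genes. In the 4 comparisons of knockout with wildtype 0 of these 45 passed, beside 0% to 0.121% of all genes, and their medians lay between -0.17 and 0.10. Duodenal tumours labelled knockout rose in Acsl3, a long-chain acyl-CoA synthetase, to 40.4 ± 3.47 FPKM, against 11.3 ± 1.79 FPKM in duodenum (SD, n = 2 each, 1.76, adjusted p = 2.05e-05), and in Mid1ip1, which activates acetyl-CoA carboxylase (0.72, adjusted p = 0.00923). Mlxipl, the carbohydrate-responsive lipogenic factor ChREBP, fell to 17.6 ± 1.77 FPKM in these tumours, against 53.4 ± 7.09 FPKM (-1.55, adjusted p = 0.000557). Of the wider lists, 0 sterol genes passed in these tumours, and 2 lipogenic genes rose and 1 fell, where 8.16% of all genes passed and 3.94% rose. Heterozygous duodenal tumours showed the same directions relative to wildtype duodenum, with 1.82 for Acsl3 (adjusted p = 0.00202) and -2.02 for Mlxipl (adjusted p = 0.016). Npc1, which exports cholesterol from lysosomes, rose there (0.63, adjusted p = 0.0203) and Acsl1 fell (-0.74, adjusted p = 0.0366).

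The cholesterol efflux pumps Abca1 and Abcg1 rose in the colon tumours other than the ApcMin tumours labelled knockout, where their log2 changes were 0.89 (adjusted p = 0.114) and 0.37 (adjusted p = 0.233). Relative to normal colon, 6 of the 25 wider sterol genes rose and 2 fell in wildtype ApcMin tumours. Of the 20 lipogenic genes 5 rose and 4 fell, beside 19.1% of all genes higher and 18.9% lower. In heterozygous tumours 6 sterol genes rose and 1 fell, with 4 lipogenic genes up and 6 down, beside 24.2% of all genes higher and 23% lower. In ApcMin tumours labelled knockout 2 sterol genes and 1 lipogenic gene rose and none fell, where 10.9% of all genes passed and 5.26% rose. In the single Apc wildtype tumour 10 of the 25 wider sterol genes had positive changes (median -0.11), beside 49.3% of all genes. Abcg1 rose to 3.46 FPKM in the colon tumour labelled knockout, against 1.19 ± 0.0786 FPKM in colon (1.03, adjusted p = 0.0165), and Abca1 to 7.6 FPKM, against 1.77 ± 0.499 FPKM (1.65, adjusted p = 0.0187). Macrophages also express both pumps, and macrophage markers summed to 634 FPKM in that tumour, against 296 and 407 FPKM in the colons. Changes were positive in 6 of 6 macrophage and 5 of 5 endothelial markers, and their part in these rises was not tested. In heterozygous colon tumours 3 of 6 macrophage markers fell, and in ApcMin colon tumours labelled wildtype 0 of 6 passed. The part of macrophages in the rises of both pumps in those tumours, given next, was not tested. Heterozygous colon tumours had 9.35 ± 0.752 FPKM of Abca1, against 2.94 ± 0.0307 FPKM in wildtype colon (1.39, adjusted p = 0.000473), and a rise of Abcg1 (1.17, adjusted p = 0.000909), while Nr1h3, the liver X receptor alpha that drives both pumps, fell (-1.14, adjusted p = 0.00417). In wildtype ApcMin colon tumours Abca1 (1.21, adjusted p = 0.019), Abcg1 (0.95, adjusted p = 0.00466), the SREBP protease Mbtps2 (0.63, adjusted p = 0.00355), the triglyceride enzyme Dgat2 (1.36, adjusted p = 0.00458) and the elongase Elovl5 (0.60, adjusted p = 0.00484) rose. Tumours labelled knockout had 80.5 ± 21.3 FPKM of Dgat2, against 22.0 ± 0.183 FPKM in colon (1.80, adjusted p = 0.00604), and rises of Npc1l1, the intestinal cholesterol importer (2.10, adjusted p = 0.00479), and Soat2, which esterifies cholesterol (1.32, adjusted p = 0.00692). Beside them 6 of 12 small-intestinal enterocyte markers rose in these tumours (median 2.05, highest 4.99), and the part of these cells in the rises was not tested. Tmem97, a sterol-regulated receptor, fell in the single colon tumour (-0.89, adjusted p = 0.0407).

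Several of these genes differed strongly between organs. In wildtype duodenum relative to colon 7 of the 25 sterol genes rose and 3 fell, as did 7 and 3 of the 20 lipogenic genes. Of all genes 18.3% were higher there and 16.2% lower. In duodenum labelled knockout 7 sterol genes rose and 5 fell, with 7 lipogenic genes up and 6 down, beside 23.3% of all genes higher and 22.3% lower. In wildtype duodenum Dgat1, which makes triglyceride for chylomicrons, rose to 522 FPKM, against 35.5 ± 10.5 FPKM in colon (3.87, adjusted p = 2.2e-06), as did Acsl5 (3.71, adjusted p = 3.6e-06) and Mlxipl (3.42, adjusted p = 2.2e-06), while Acsl3 fell (-2.23, adjusted p = 3.79e-06). Duodena labelled knockout differed from colons labelled knockout in the same directions, by 3.92 for Dgat1, 4.03 for Acsl5, 3.54 for Mlxipl and -2.11 for Acsl3, with adjusted p = 3.43e-07 or lower. In ileum tumours relative to colon tumours Dgat1 rose by 3.14 in wildtype (adjusted p = 6.09e-06) and 2.69 in tumours labelled knockout (adjusted p = 3.47e-05), and Npc1l1 by 6.07 in wildtype (adjusted p = 0.000195).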

How the data were processed

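RNA-seq values came from 23 specimens in 12 groups. The authors deposited FPKM per gene, made with FastQC, TopHat2 2.0.13 and Cuffnorm on mm10 per the submitters' processing notes; strand and multi-mapping settings are not stated. All 68 columns matched a sample, 0 did not. Column sums ran from 476233 to 801309 FPKM and relative depth, read from the lowest values, from 0.717 to 1.32. With no counts deposited, no counting interval is given.

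Columns were averaged per specimen and log2(FPKM + 1) was fitted with limma 3.58.1 in R 4.3.3 (lmFit, eBayes with trend) over the 14098 genes that reached 1 FPKM in 2 or more specimens, with p-values adjusted by Benjamini-Hochberg over all of them at 0.05. All groups of a fit share the spread. The pseudocount of 1 understates changes of low genes. ApcMin colon tumours labelled wildtype or knockout were set against colon of run 2, and heterozygous tumours against tissue of run 1, since the other run lacks those tumours. The 2 wildtype duodena entered as 1 sample. The p-values measure the spread between specimens, and an exact permutation test of 2 against 2 cannot go below 0.333. In simulated data, 81 of 100 genes changed 2-fold were recovered in the colon comparison, 77 in duodenum, 81 in ApcMin colon tumours, 79 in ApcMin ileum tumours and 81 in wildtype tumours against colon. The simulation drew independent noise for each gene, with the same spread in every group, and changed only genes above a set level. The groups here differ in spread, so these values check the fit and are not the share of real changes it would find.

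The members and lists were chosen with earlier results of these data known. Each comparison names every member past the adjusted p, otherwise the 6 sterol and 4 lipogenic members with the smallest p, in knockout comparisons also Srebf1, Srebf2, Insig1 and Scap, and up to 4 other pathway genes past the adjusted p; some genes this rule takes are not reported here. Promoter windows are RefSeq's (GRCm38.p6), found for 25 of 32 members. Replicate numbers pair the same animals only between duodenum and colon of 1 Cftr label (correlation of deviations 0.0103 in wildtype and 0.0332 in knockout; 2 pairs each). Alternatives were a pseudocount of 0.1, the compared groups fitted alone, quantile normalisation, no filter, a replicate block, each specimen left out, each run alone and the wildtype duodena counted apart. Added after the data were seen were the difference between tumour changes, the sterol level per epithelial marker and 4 of the promoters shown.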

Additional observations from a re-analysis of the deposited data

How the results depend on the processing

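For the members past the adjusted p, counts depended most on which groups set the spread, and the cause was not tested. The count of all genes past it moved by over 1.5 times, or to or from 0, in 68 settings and stayed within that in 113. Shares of all genes are not given beside the counts below, which are therefore not read as particular to the members. With the compared groups alone they were 1 for knockout against wildtype ApcMin ileum tumours, 0 for knockout duodenal tumours against duodenum, 3 for the knockout colon tumour against colon, 1 for wildtype, 0 for knockout and 20 for heterozygous ApcMin colon tumours against colon, 0 for heterozygous duodenal tumours against duodenum and 0 for wildtype ileum against colon tumours. With the replicate block the members past it were 1 in knockout against wildtype duodenum, 2 in knockout ApcMin colon tumours against colon and 10 in heterozygous duodenal tumours; the block moved no other count of members by over 1.5 times. The organ comparisons of normal tissue are paired by animal, and in the others samples share a number alone (correlations of deviations -0.24 to 0.35). With the wildtype duodena apart the members past it were 1 in knockout duodenum and 7 in heterozygous duodenal tumours, and without the run 1 library of wildtype colon 2 they were 5 in heterozygous colon tumours. For the single colon tumour the members past it were 1 with pseudocount 0.1, 2 with quantile normalisation, 3 in run 1 and 1 in run 2, and for wildtype ileum against colon tumours 1 with no filter. Leaving out 1 specimen at a time, the members past it numbered 0 to 3 in knockout colon, 0 to 1 in knockout ApcMin colon tumours against wildtype ones and against colon, 1 to 3 in knockout duodenal tumours, 9 to 17 in wildtype and 5 to 11 in heterozygous ApcMin colon tumours, 1 to 8 in heterozygous duodenal tumours, 0 to 2 in either ileum against colon tumour comparison and 0 to 2 for the difference between tumour changes.

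Without 1 specimen, the sterol median log2 change ran from 0.40 to 0.79 in knockout colon, 0.19 to 0.51 in knockout duodenum, -0.11 to 0.35 between wildtype duodenum and colon (-0.061 with quantile normalisation) and -0.46 to 0.025 for the difference between the duodenal and colonic knockout changes. The lipogenic median ran from -0.081 to 0.20 in knockout colon, -0.22 to 0.038 in knockout duodenum, -0.34 to -0.069 in knockout ApcMin colon tumours, -0.11 to 0.14 in knockout ApcMin ileum tumours, -0.054 to -0.048 for the single colon tumour (-0.048 in run 2 alone), -0.27 to 0.017 for knockout ileum against colon tumours and -0.27 to 0.10 for the difference between duodenal and colonic changes. Among genes whose direction turned, none past the adjusted p, Scap ran from -0.036 to 0.0024 in knockout colon and Srebf1 from -0.22 to 0.16 in knockout duodenum (0.024 in run 1 alone). In knockout ApcMin colon tumours Lss ran from -0.75 to 0.058, Insig1 from -0.54 to 0.19 and Srebf2 from -0.067 to 0.064, and in ileum tumours Srebf2 from -0.061 to 0.15 and Srebf1 from -0.078 to 0.17. The difference between the ileum and colon tumour changes ran from -0.47 to 0.026 for Mvk and -0.85 to 0.0091 for Stard4. Of the values for single genes, 1937 kept direction and side of the threshold, 56 newly passed, 102 no longer passed and 11 turned. With no counts, the depth behind low FPKM values is unknown.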
